A study of Mus musculus with 12 samples.

Results

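The transcripts of the 9 chromodomain helicase DNA-binding genes, *Chd1* to *Chd9*, were followed in mouse embryonic stem (mES) cells as the mSWI/SNF ATPase BRG1 was removed in steps. Members were taken by gene symbol, and all 9 were among the 24421 genes of the counts table. RNA-seq was made from mES cells of the B6 strain (C57BL/6J in the study) that carry a degron (FKBP12-F36V) knocked in at *Brg1*, through which the small molecule dTAG13 sends the tagged BRG1 protein to the proteasome. The knock-in line was derived from a single-cell colony, and every group, the control included, carries the knock-in and was grown in 2i+LIF medium. The control group received no dTAG13, the 5 other groups received 0.3, 1, 3, 10 or 100 nM for 24 h, and each of the 6 groups has 2 libraries, 12 in all. No untagged cells treated with dTAG13 were among the libraries analysed here, so the loss of BRG1 and any other effect of the molecule cannot be told apart. The question here is whether the transcripts of other chromatin remodellers respond when BRG1 is lost.

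CHD proteins are ATP-dependent remodellers of the SNF2 superfamily that slide, space or evict nucleosomes, and they share paired chromodomains in front of the ATPase domain. CHD1 and CHD2 act on transcribed chromatin, and CHD1 is needed for the open chromatin of mES cells. CHD3, CHD4 and CHD5 are alternative ATPases of NuRD, a complex that couples remodelling to histone deacetylation and helps mES cells leave the pluripotent state. CHD6, CHD7, CHD8 and CHD9 form a subfamily of large proteins with BRK domains. CHD7 binds enhancers in mES cells and is mutated in CHARGE syndrome, and CHD8, a partner of beta-catenin and CTCF, is mutated in a form of autism.

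The libraries held 4663484 to 6375582 counts of read pairs, and the 95% intervals given here cover the spread between libraries in the fit. The ribosomal transcript *Rn45s* took 10.5% to 19.4% of the counts. *Smarca4*, the gene of BRG1, is targeted at the protein and not at the transcript, which stood at 63.9 ± 0.503 RPKM (SD, n = 2) in the control and 71.3 ± 0.0942 RPKM (SD, n = 2) at 100 nM, so its counts do not check the labels. All 10 pluripotent markers examined were detected in every group, and 3 of them were higher and 4 lower at 100 nM, beside 10.1% and 13.3% of all genes tested. These marker counts turned on the scaling, with 4 higher and 2 lower under upper quartile factors and 3 and 2 under no factors. The summed level of the 10 ran from 2301 to 2334 RPKM in the control and from 2159 to 2197 RPKM at 100 nM. The 12 markers of differentiated germ layers summed to between 20.3 and 22.8 RPKM in the control and between 35.0 and 36.3 RPKM at 100 nM, where 3 of the 5 that could be tested were higher (2 to 4 over the scalings tried), and the 8 fibroblast or feeder markers to at most 3.44 RPKM in any library. No marker was at 0 in every library. Fewer cells of a type and less RNA per cell cannot be told apart in such bulk libraries, and the part of these marker changes in the results below was not tested.

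Of the 9 members, *Chd7* was the one that responded most clearly, and it rose. Its level was above both control libraries in all 10 treated libraries and reached 1.40-fold of the control at 10 nM and 1.37-fold at 100 nM. *Chd1* was 1.14-fold higher at 100 nM, while *Chd4* and *Chd8* were lower there at 0.870 and 0.863 of the control. The calls of *Chd1*, *Chd4* and *Chd8* were lost in 6, 4 and 3 of 21 alternatives. Of all genes tested, 10.1% were higher and 13.3% lower at that dose. *Chd2*, *Chd3*, *Chd6* and *Chd9* did not pass the test at any dose as reported, and *Chd5* had the lowest level and did not pass the filter on low values. With scaling over every gene of the table, *Chd6* was called lower at 10 and 100 nM. No member changed by over 1.5-fold in any comparison.

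Levels are given in RPKM, the counts per kilobase of exon scaled to the library, so that genes of different length can be compared. In the control, *Chd4* had the highest level at 113 ± 5.34 RPKM (SD, n = 2), which was 3.53 times that of the next member. *Chd8* at 32.1 ± 0.742 RPKM and *Chd1* at 31.5 ± 0.0266 RPKM (SD, n = 2 each) stood next to each other with a ratio of 1.02, and the lower *Chd8* library at 31.6 RPKM all but met the higher *Chd1* library at 31.5 RPKM. These 2 neighbours in the order did not differ beyond the spread of *Chd8*. *Chd2* followed at 17.7 ± 2.29 RPKM and *Chd9* at 11.9 ± 0.707 RPKM (SD, n = 2 each). *Chd6* at 7.14 ± 0.555 RPKM and *Chd7* at 6.46 ± 0.214 RPKM (SD, n = 2 each) were also close, with the lower *Chd6* library at 6.75 RPKM and the higher *Chd7* library at 6.61 RPKM. All other neighbours in the order stood clearly apart. *Chd3* stood at 3.55 ± 0.752 RPKM and *Chd5* at 1.10 ± 0.0295 RPKM (SD, n = 2 each), so the 3 NuRD ATPase genes covered both ends of the family. The mean level over the 12 libraries put *Chd4* at the 94.6th percentile of the genes tested and *Chd3* at the 22.7th. The library plot of the 9 genes shows that the 2 close pairs parted with dTAG13, since *Chd7* stood above *Chd6* in every treated library except 1 nM replicate 1, and *Chd1* above *Chd8* in every treated library except 0.3 nM replicate 2.

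**Figure D1:**
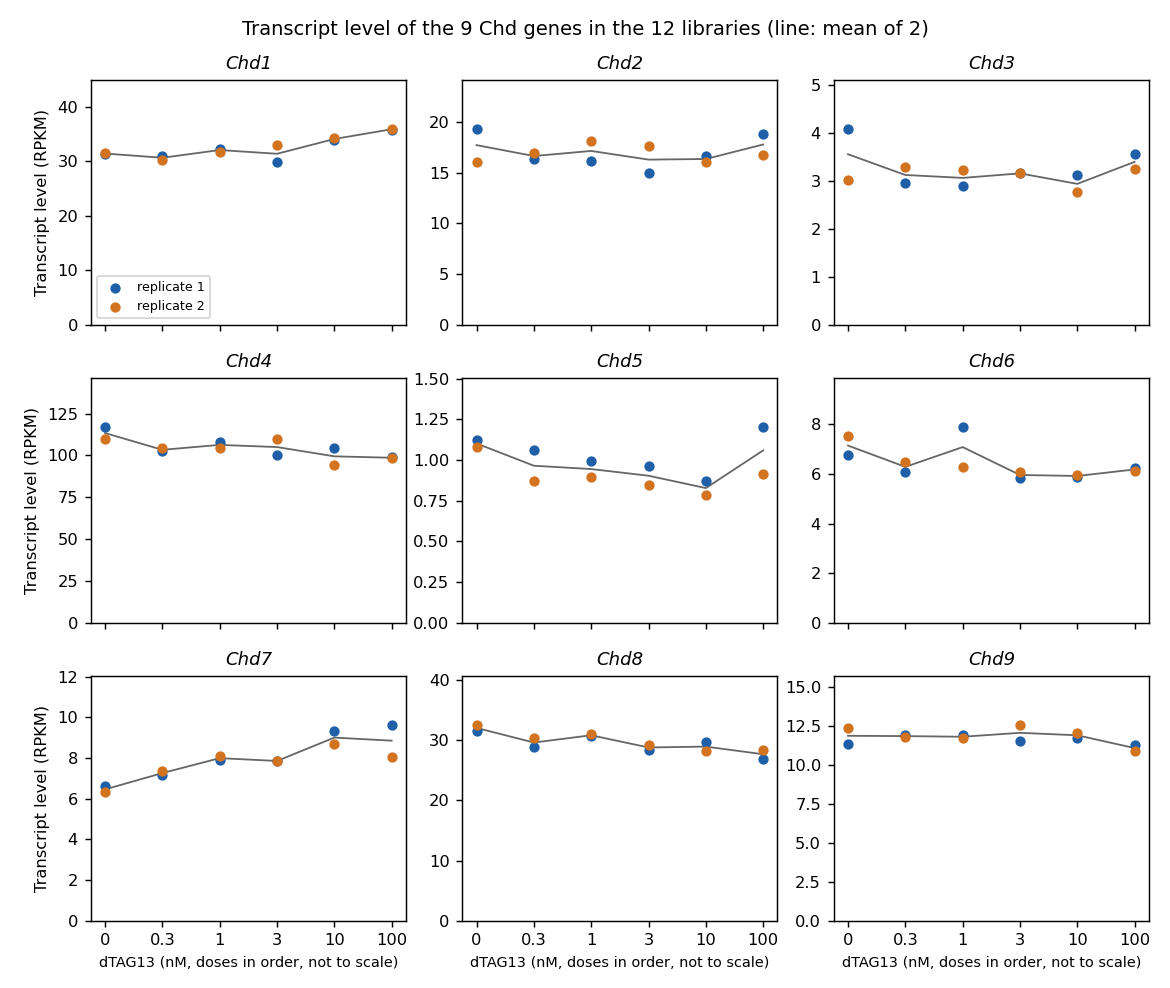
Transcript level in RPKM (vertical axes from 0, one scale per gene) of the 9 Chd genes against the dTAG13 dose in nM, shown in order and not to scale; points are the 2 libraries of each dose and the line joins their means. *Chd7* climbs from a mean of 6.46 RPKM in the control to 8.85 RPKM at 100 nM, whereas *Chd4* and *Chd8* drift down and *Chd2*, *Chd3* and *Chd9* show no steady course.

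Promoter windows of 300 bases (250 before and 50 after the start, RefSeq on GRCm38.p6, the same assembly as mm10) were at hand for 5 of the 9 members. Those of *Chd4* and *Chd8* are shown because both genes were lower at 100 nM. The *Chd4* window shown is chr6:125095913-125096212 on the plus strand, and its start is that of the counted gene. A second *Chd4* window, chr6:125095731-125096030, has its start 182 bases upstream and is not printed. It had 57% GC, 3 GC boxes, 1 CCAAT box and 1 TGACG. The *Chd8* window is chr14:52257711-52258010 on the minus strand, 20188 bases upstream of the start of the counted *Chd8*. Capitals mark matches, on either strand, to the E-box (CACGTG), the CCAAT box, the GC box (GGGCGG), the TATA box (TATAAA), an ETS core (CCGGAAG) or the core of a cAMP response element (TGACG).

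Chd4: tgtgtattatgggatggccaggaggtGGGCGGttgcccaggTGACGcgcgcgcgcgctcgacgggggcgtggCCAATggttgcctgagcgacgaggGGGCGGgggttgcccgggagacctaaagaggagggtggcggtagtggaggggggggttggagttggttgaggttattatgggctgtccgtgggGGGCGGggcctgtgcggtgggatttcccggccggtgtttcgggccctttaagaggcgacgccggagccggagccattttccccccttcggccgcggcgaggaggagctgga

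Chd8: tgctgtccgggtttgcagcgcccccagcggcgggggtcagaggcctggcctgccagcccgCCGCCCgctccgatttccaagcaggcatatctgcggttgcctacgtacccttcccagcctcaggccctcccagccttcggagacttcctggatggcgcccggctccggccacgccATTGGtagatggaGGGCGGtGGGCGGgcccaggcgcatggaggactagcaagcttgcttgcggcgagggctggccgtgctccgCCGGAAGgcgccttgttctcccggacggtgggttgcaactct

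Both windows shown held 3 GC boxes and 1 CCAAT box, and no E-box or TATA box. The *Chd4* window also held 1 TGACG and that of *Chd8* 1 ETS core. Of all 32851 windows of this length in the table, 35.7% held at least 1 GC box, 37.4% a CCAAT box and 7.15% an E-box. A TATA box was in 13.6%, the ETS core in 8.86% and TGACG in 20.8%. A GC box or a CCAAT box alone is thus common. Windows with 3 GC boxes, or with both motifs, were not counted. The GC content of the windows shown was 68.3% for *Chd4* and 69.3% for *Chd8*, beside a median of 52.7% over all windows. *Chd6*, which was not called as reported, had a window with 61% GC, 1 GC box and 3 CCAAT boxes. The window of *Chd9* at the counted start had 65.7% GC and 1 GC box, and that of *Chd5* 70.7% GC and 3 GC boxes. *Chd1*, *Chd2*, *Chd3* and *Chd7* had no window in the table.

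Each dose was compared with the control by edgeR's quasi-likelihood test on the counts of the 11378 genes whose mean reached 1 RPKM, with the 6 groups fitted together, and a gene was called at a Benjamini-Hochberg adjusted p under 0.05. Of the 9 members, 8 passed that filter and *Chd5* did not. The labels do not say how the libraries of a group were cultured, while the study describes its expression data as coming from independent experiments, and the p-values measure the spread between these libraries. All 5 comparisons share the 2 control libraries. At 0.3 nM, 0 of 8 members were called higher and 0 lower by edgeR, against 0% and 0.0703% of all genes tested. At this dose 1 member (*Chd4*) had an unadjusted p under 0.05, as did 859 of all 11378 genes. At 1 nM, 0 were called in either direction, against 0.773% higher and 1.52% lower of all genes, again with 1 member (*Chd7*) at an unadjusted p under 0.05, beside 1536 of all 11378 genes. DESeq2 and the likelihood ratio test of edgeR also called 0 members at these 2 doses. At 3 nM, 1 of 8 was higher and 0 lower, beside 4.15% and 5.25% of all genes. At 10 nM, 1 of 8 was higher and 1 lower, beside 7.87% and 10.1%. At 100 nM, 2 of 8 were higher and 2 lower, beside 10.1% and 13.3%. With so few members, such counts are close to what the background gives, so the family as a group is described and no group response is read from it. The members' median log2 fold change was -0.13 at 10 nM and -0.08 at 100 nM, where that of all genes tested was 0.0050 and 0. Past 1.5-fold, 0 members were called at 0.3, 1, 3, 10 and 100 nM, beside 0.0176%, 0.914%, 3.9%, 7.93% and 11.2% of all genes.

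**Figure D2:**
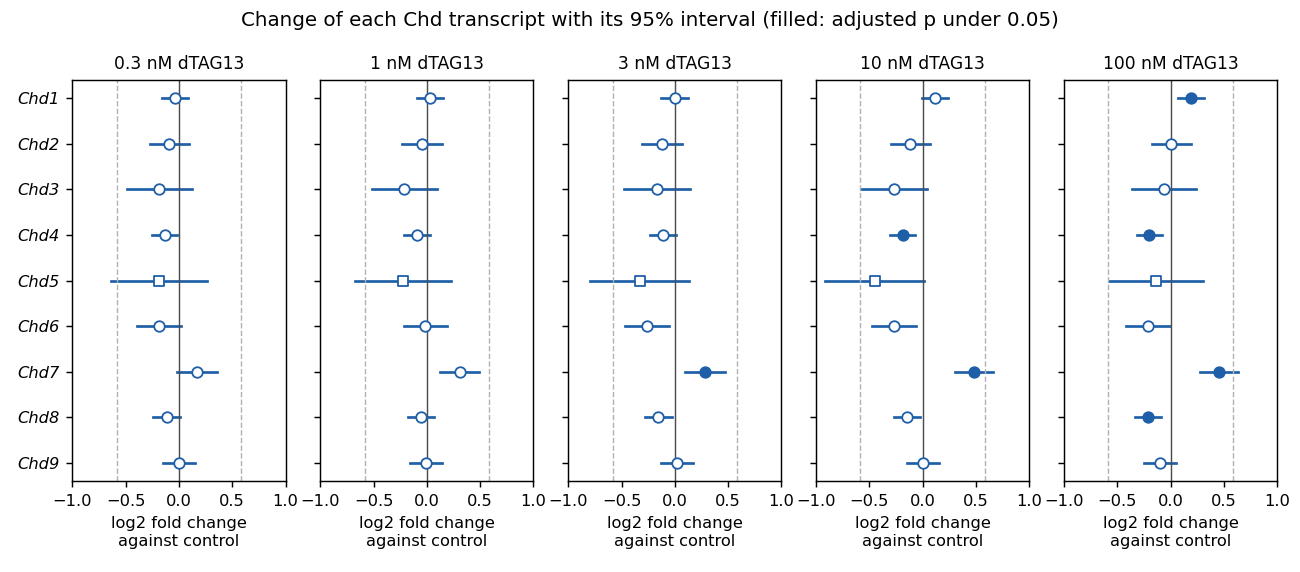
log2 fold change of each Chd transcript against the control at the 5 dTAG13 doses, with 95% intervals as bars. Filled points passed an adjusted p under 0.05 (edgeR quasi-likelihood test), and dashed lines mark 1.5-fold. The square for *Chd5* comes from a fit of every gene with a count, with factors taken over those genes. *Chd7* is filled at 3, 10 and 100 nM, *Chd4* at 10 and 100 nM, and *Chd1* and *Chd8* at 100 nM, all within the dashed lines.

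*Chd7* lies on mm10 chromosome 4 from 8690406 to 8868449 on the plus strand and has 11306 bases of exon. Its RPKM was 6.61 and 6.30 in the control libraries, 7.18 and 7.34 in the 0.3 nM libraries, 7.89 and 8.10 with 1 nM, and 7.84 and 7.87 with 3 nM. It was 9.33 and 8.68 at 10 nM and 9.64 and 8.07 at 100 nM. Every treated library was therefore higher than both controls, and the 10 and 100 nM libraries overlapped each other. Of all genes tested, 4.92% had all 10 treated libraries above both controls. The log2 fold change of *Chd7* was 0.17 at 0.3 nM, with a standard error (SE) of 0.090 and an adjusted p of 0.703, and 0.31 at 1 nM (SE 0.088, adjusted p = 0.0671, edgeR), neither called. At 3 nM it was 0.28 (SE 0.090), with an adjusted p of 0.0453 in the same edgeR test that lies close to the threshold and passed it under 7 of 21 alternatives. It was 0.48 at 10 nM (SE 0.088, adjusted p = 0.000257) and 0.46 at 100 nM (SE 0.088, adjusted p = 0.000313, both edgeR). These 2 calls were kept under all 21 alternatives of scaling, test, filter and library, with log2 fold changes of 0.42 to 0.54 at 10 nM and 0.32 to 0.58 at 100 nM. The 100 nM libraries of *Chd7* had 658 and 558 counts and were further apart than those of any other dose. At 100 nM, 24.0% of all genes tested had a larger absolute change than *Chd7*.

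Of the other 3 genes of the *Chd7* subfamily, 0 were called higher at any dose. The shares of all genes tested that were called higher at the 5 doses were 0%, 0.773%, 4.15%, 7.87% and 10.1%. A count of 0 of 3 is therefore near the background. *Chd8* lies on chromosome 14 from 52198151 to 52237572 on the minus strand. Its RPKM was 31.6 and 32.6 in the control, 28.9 and 30.4 in the 0.3 nM libraries, 30.7 and 31.0 with 1 nM, and 28.4 and 29.3 with 3 nM. It was 29.8 and 28.2 at 10 nM and 27.0 and 28.4 at 100 nM. All 10 treated libraries were below both controls, as was the case for 6.04% of all genes tested. Of the 5 doses *Chd8* was called at the highest, where its log2 fold change was -0.21 (SE 0.061, adjusted p = 0.0120, edgeR). At 3 and 10 nM it was -0.15 in both, with adjusted p of 0.127 and 0.101 in the same edgeR test, and it was called lower at both with TMM over every gene (-0.20 and -0.19, adjusted p of 0.0413 and 0.0302), where it was the 1 member called at 3 nM. The call at 100 nM was lost without normalization factors (adjusted p = 0.180) and without control replicate 2 or 100 nM replicate 1 (0.103 and 0.135), and over all alternatives the adjusted p of edgeR or DESeq2 ran from 0.000264 to 0.180.

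*Chd6* lies on chromosome 2 from 160946978 to 161109086 on the minus strand. Its RPKM was 6.75 and 7.54 in the control, 6.08 and 6.49 in the 0.3 nM libraries, 7.91 and 6.26 with 1 nM, 5.83 and 6.09 with 3 nM, 5.88 and 5.96 with 10 nM, and 6.24 and 6.12 with 100 nM. One library at 1 nM was thus the highest of all 12, and the 9 other treated libraries lay below both controls. At 100 nM its log2 fold change was -0.21 (95% interval -0.42 to -0.0041, adjusted p = 0.136, edgeR), which was not called. With no filter *Chd6* was called lower at 10 and 100 nM (-0.31 and -0.29, adjusted p of 0.0244 and 0.0304, edgeR). The same 2 doses were called with TMM over every gene. With no filter the factors were taken over all 23204 genes with a count, so these 2 alternatives share a like scaling. In both, the median log2 fold change of the tested genes at 100 nM was -0.081. *Chd9*, which lies on chromosome 8 from 90828835 to 91054508 on the plus strand, ranged from 10.9 to 12.6 RPKM over the 12 libraries, and its 2 controls at 11.4 and 12.4 RPKM lay inside that range. At 100 nM its libraries stood at 11.3 and 10.9 RPKM. The log2 fold change there was -0.10 with a 95% interval of -0.25 to 0.049 (adjusted p = 0.352, edgeR), so a fall to 0.842 of the control or a rise to 1.03-fold remained possible.

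Of the NuRD ATPase genes, *Chd4*, the main one of mES cells, fell. It lies on chromosome 6 from 125096163 to 125130501 on the plus strand. Its RPKM was 117.14 and 109.59 in the control, 102 and 104 in the 0.3 nM libraries, 108 and 105 with 1 nM, 100.20 and 109.75 with 3 nM, 104 and 94.5 with 10 nM, and 98.8 and 98.4 with 100 nM. The second library at 3 nM lay just above the lower control, and the 9 other treated libraries were below both controls. The log2 fold change was -0.19 at 10 nM (SE 0.058, adjusted p = 0.0230) and -0.20 at 100 nM (SE 0.058, adjusted p = 0.0119, both edgeR's quasi-likelihood test). With counts of 3172 to 4383 per library, *Chd4* was the member measured with the smallest standard error. Both calls were lost without control replicate 1, the higher of the 2 controls, where the log2 fold changes became -0.15 at 10 nM (adjusted p = 0.206) and -0.15 at 100 nM (adjusted p = 0.152, edgeR). Without 10 nM replicate 2 the value at 10 nM was -0.12, and the call there was lost. The 10 nM call was also lost by the likelihood ratio test, which the study used. It did not hold with no normalization factors or with only the 2 groups fitted. The call at 100 nM was also lost without either 100 nM library (adjusted p of 0.0720 and 0.0783) and without normalization factors (0.176).

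*Chd3* lies on chromosome 11 from 69343273 to 69369426 on the minus strand. Its libraries ran from 2.75 to 4.08 RPKM on 113 to 173 counts, the highest being control replicate 1 and the other control standing at 3.02 RPKM. At 100 nM the log2 fold change was -0.06 with a 95% interval of -0.36 to 0.24 (adjusted p = 0.808, edgeR), so a fall to 0.777 of the control or a rise to 1.18-fold remained possible. *Chd5*, best known from neural cells and the testis, lies on chromosome 4 from 152338651 to 152390194 on the plus strand and had 43 to 69 counts per library. Its RPKM was 1.12 and 1.08 in the control, lay within 0.783 to 1.06 from 0.3 to 10 nM, and was 1.20 and 0.913 at 100 nM. In a fit of all 23204 genes with at least 1 count, its largest log2 difference was -0.45 at 10 nM (SE 0.24, adjusted p = 0.287, edgeR), which was not called. The factors of that fit were taken over those genes, which put the median of the tested genes at -0.036 at 10 nM. With the reported scaling the mean RPKM of *Chd5* at 10 nM was 75.1% of the control.

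*Chd1* and *Chd2* differed from each other in their values. *Chd1*, on chromosome 17 from 15704967 to 15772612 on the plus strand, had control libraries at 31.4 and 31.5 RPKM. Its RPKM was 31.0 and 30.3 in the 0.3 nM libraries, 32.4 and 31.8 with 1 nM, 29.9 and 33.0 with 3 nM, 33.9 and 34.4 with 10 nM, and 35.8 and 36.0 with 100 nM. The 4 libraries of 10 and 100 nM were the highest of the 12. At 100 nM the log2 fold change was 0.19 (SE 0.060, adjusted p = 0.0210), and at 10 nM 0.12 (SE 0.060, adjusted p = 0.199, both edgeR). The call at 100 nM was lost in 6 of 21 alternatives, among them the removal of each control or 100 nM library (adjusted p of 0.0888 to 0.102) and scaling over every gene of the table (log2 fold change 0.11, adjusted p = 0.198). *Chd2*, on chromosome 7 from 73426652 to 73541746 on the minus strand, had controls at 19.3 and 16.1 RPKM. Of its 10 treated libraries 2 lay below both controls and 0 above, and all 10 lay between 14.9 and 18.8 RPKM. Its log2 fold change at 100 nM was 0.0057 with a 95% interval of -0.18 to 0.19 (adjusted p = 0.981, edgeR), which allows a fold of 0.884 to 1.14.

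A slope over the order of the 6 doses uses every library at once. By edgeR's quasi-likelihood test of this slope, 2 of 8 members were called upward and 2 downward, beside 13.6% and 15.7% of all genes tested. *Chd7* had a slope of 0.091 log2 units per step (SE 0.016, adjusted p = 8.00e-05), and it was called under all 22 alternatives. *Chd1* had a slope of 0.040 per step (SE 0.011, adjusted p = 0.00727). *Chd4* and *Chd8* had slopes of -0.034 (SE 0.010, adjusted p = 0.0156) and -0.036 per step (SE 0.011, adjusted p = 0.0124). The slope of *Chd1* was not called with scaling over every gene or no filter, that of *Chd4* without normalization factors or control replicate 1, and that of *Chd8* without factors, control replicate 2 or 100 nM replicate 1, with adjusted p of at most 0.161, 0.177 and 0.176. *Chd6* had the steepest downward slope, at -0.045 per step, with the larger standard error of 0.019 and an adjusted p of 0.0770 in the same edgeR test. That slope was called with no filter (-0.061, adjusted p = 0.0201, edgeR) and with TMM over every gene, which share a like scaling. Sample numbers in the labels run without a repeat through the 8 libraries of the control, 1, 10 and 100 nM, and the 4 libraries of the remaining 2 doses carry numbers that repeat some of these. Within those 8 libraries *Chd7*, *Chd1*, *Chd4* and *Chd8* were also called. The slopes were 0.094 for *Chd7*, 0.038 for *Chd1*, -0.042 for *Chd4* and -0.042 for *Chd8* (adjusted p of 0.000831, 0.0179, 0.00719 and 0.0124, edgeR). In this subset 1234 of all 11378 genes tested were called upward and 1547 downward. The 8 libraries are part of the full set and include its control and 100 nM libraries. Their calls are therefore not independent of those above. The other 4 libraries hold no control, so for 0.3 and 3 nM against the control the dose and the numbering cannot be told apart. Within these 4 libraries 3 nM was compared with 0.3 nM. There 0 of 8 members were called by edgeR, with 0 at an unadjusted p under 0.05 (2126 of all 11378 genes) and 0 by DESeq2 or the likelihood ratio test, beside 2.43% of all genes higher and 2.88% lower. The log2 difference of *Chd7* between these 2 doses was 0.11 (SE 0.089, adjusted p = 0.542).

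The scaling of the libraries bears on the small changes. TMM factors were taken over the tested genes, a choice made after the data were seen, which puts the median log2 fold change of these genes at 0 at 100 nM, with 1151 genes called higher and 1511 lower. Taken over every gene of the table, the factors moved that median to -0.08, and 802 genes were higher and 2174 lower. Under that scaling *Chd7* was still called higher at 100 nM (log2 fold change 0.37, adjusted p = 0.00216), and *Chd4* (-0.28), *Chd8* (-0.29) and *Chd6* (-0.29, adjusted p = 0.0339) were called lower, whereas *Chd1* was not called. With no normalization factors, *Chd7* (0.50, adjusted p = 0.000557) and *Chd1* (0.24, adjusted p = 0.0420) were called at 100 nM and *Chd4* and *Chd8* were not, all by edgeR's quasi-likelihood test. *Chd7* was thus the member whose direction and call at 10 and 100 nM did not turn on the scaling.

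**Figure D3:**
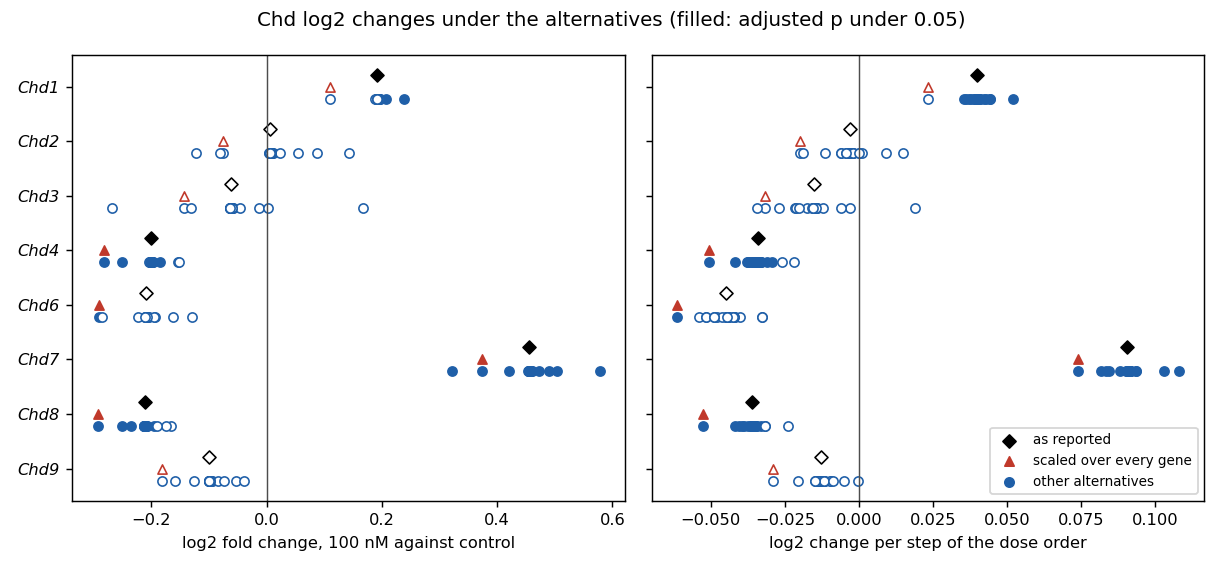
log2 fold change at 100 nM (left) and log2 change per step of the dose order (right) of the 8 tested Chd genes under each alternative, as reported (diamonds), scaled over every gene (triangles) or under the other alternatives (circles); filled symbols passed an adjusted p under 0.05, and the slope on a log10 dose axis is left out as its unit differs. All symbols of *Chd7* are filled, those of *Chd1*, *Chd4* and *Chd8* are in part, and *Chd2* and *Chd3* lie on both sides of 0.

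A share within the family does not depend on the scaling of a library, but the shares are tied to each other. *Chd4* holds the largest share, so a fall of *Chd4* alone would raise the shares of the other members. *Chd7* made up 2.88% and 2.86% of the summed RPKM of the 9 genes in the control libraries, and this share stood above both in the 10 nM libraries (4.33% and 4.27%) and in the 100 nM libraries (4.54% and 3.86%). The lowest share in a treated library was 3.45%, above both controls. *Chd1* went in share from 13.7% and 14.3% to 16.9% and 17.2% at 100 nM, while that of *Chd4* went from 51.1% and 49.8% to 46.5% and 47.1%. The summed RPKM of the family itself ran from 203 to 229 over the 12 libraries, and *Chd4* held from 46.5% to 51.1% of it in every library.

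**Figure D4:**
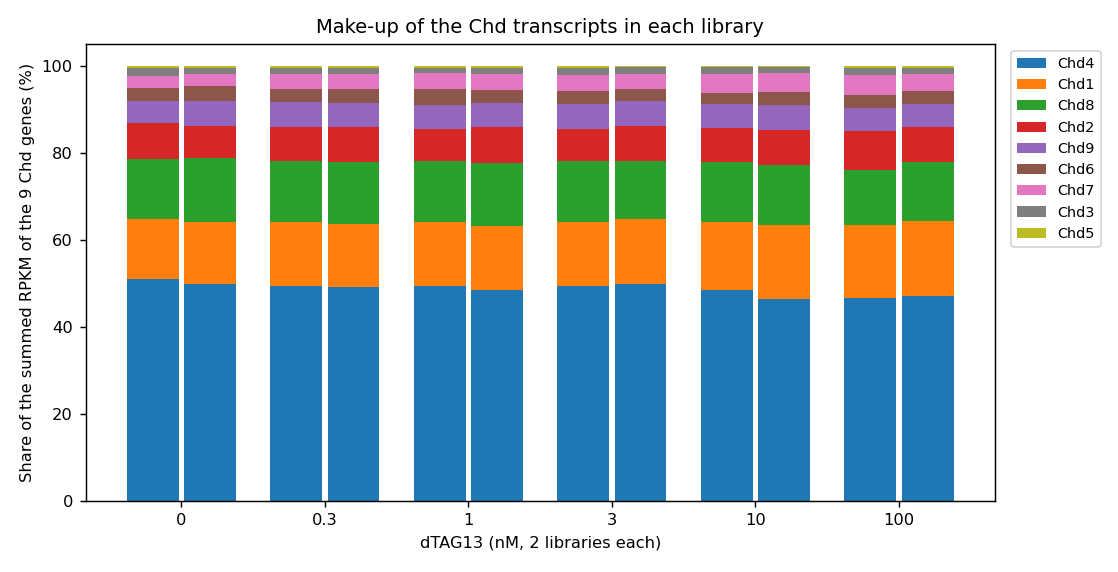
Share in percent of the summed RPKM of the 9 Chd genes held by each gene (stacked bars from 0 to 100), for the 2 libraries of each dTAG13 dose. *Chd4* holds 46.5% to 51.1% of every bar, and the segment of *Chd7* widens from 2.9% in the control to 4.2% to 4.3% on average at 10 and 100 nM.

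Genes of the complexes in which CHD proteins work were counted for comparison. Of 12 NuRD partner genes, all tested, 0 were higher and 2 lower at 100 nM, beside 10.1% and 13.3% of all genes tested, so the count was near the background. The 2 were the deacetylase gene *Hdac2*, from 90.1 and 99.8 RPKM in the control to 70.6 and 71.1 at 100 nM (a log2 change of -0.42, SE 0.085, adjusted p = 0.000555), and the scaffold gene *Gatad2a* (-0.20, SE 0.053, adjusted p = 0.00834, both edgeR). The other two of the 4 with the smallest adjusted p, *Gatad2b* and *Mta3*, had log2 fold changes of -0.28 and -0.23 and were not called (adjusted p of 0.0548 and 0.191, edgeR). The median over the 12 NuRD partners was -0.12 beside 0 for all genes tested. At 0.3, 1, 3 and 10 nM, 0 of the 12 were called by edgeR, with 0, 1, 3 and 2 at an unadjusted p under 0.05. Of all 11378 genes tested, 859, 1536, 2475 and 3296 had such a p at these doses. Of 5 genes listed as partners of CHD4 in the ChAHP complex, 4 were tested. The other, *Adnp*, had 13 to 39 counts per library and did not pass the filter. With the reported scaling 0 of the 4 were called at 100 nM by edgeR (1 at an unadjusted p under 0.05, as were 3929 of all 11378 genes). Of these 4, *Adnp2* was lower at 10 nM (log2 fold change -0.34, SE 0.096, adjusted p = 0.0135, edgeR). Of 9 genes for elongation factors that work with CHD1, 1 was lower at 100 nM, the PAF complex gene *Cdc73* (-0.30, SE 0.089, adjusted p = 0.0157), and 0 were higher. With so few genes, the counts of these 2 lists are also not told from the shares over all genes given for NuRD.

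Other ATPase genes of the SNF2 superfamily were compared in the same way. Of 16 SNF2-like genes outside the remodeller families, 3 were higher and 2 lower at 100 nM, close to the 10.1% and 13.3% over all genes tested. *Smarcad1*, a remodeller that acts at DNA ends and on silent chromatin, had 60.5 and 60.9 RPKM in the control and 83.2 and 84.4 at 100 nM (log2 fold change 0.47, SE 0.055, adjusted p = 3.65e-07). It was also the 1 gene of these 16 called at 3 nM (0.28, adjusted p = 0.00128) and at 10 nM (0.46, adjusted p = 8.11e-07). The replication fork gene *Hltf* was also higher (0.52, SE 0.10, adjusted p = 0.000534), as was *Chd1l*, an ADP-ribose-responsive remodeller named here after its value was seen (0.29, adjusted p = 0.0316), and *Atrx* and *Hells*, both tied to heterochromatin, were lower (-0.27 and -0.26, adjusted p of 0.000615 and 0.000940, all edgeR). The ISWI genes *Smarca5* and *Smarca1* were not called at any dose with the reported scaling, and at 100 nM *Smarca5* had a log2 fold change of -0.16 (SE 0.059, adjusted p = 0.0564). Of the INO80-class genes *Ino80*, *Srcap* and *Ep400*, 0 were called at 100 nM by edgeR (0 also at an unadjusted p under 0.05) and 1, *Srcap*, was lower at 10 nM. *Smarca4* itself was higher at 100 nM by a log2 fold change of 0.16 (adjusted p = 0.0389), a call that did not hold over every gene of the table or without normalization factors. *Smarca2*, the paralogue that encodes BRM, had only 28 to 44 counts in the control and 28 to 29 at 100 nM and did not pass the filter. No gene of these remodeller and partner lists was called past 1.5-fold, and at 100 nM the change of *Chd7* (0.46) was near those of *Smarcad1* (0.47) and *Hltf* (0.52), while at 10 nM it was 0.48 beside 0.46 and 0.25. Under all 4 scalings tried *Smarcad1*, *Hltf* and *Hdac2* were called, and no called gene of these lists changed direction. With no normalization factors the calls of *Atrx*, *Hells*, *Gatad2a* and *Cdc73* were lost (adjusted p of 0.0525, 0.0864, 0.236 and 0.131, edgeR), and with TMM over every gene that of *Chd1l* (0.121). TMM over every gene also added calls at 100 nM, where 2174 of 11378 genes were then lower. Among them were 4 of 12 NuRD partners, 2 of 4 ChAHP partners (*Adnp2* and *Cbx3*) and 1 of 2 ISWI genes (*Smarca5*).

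**Figure D5:**
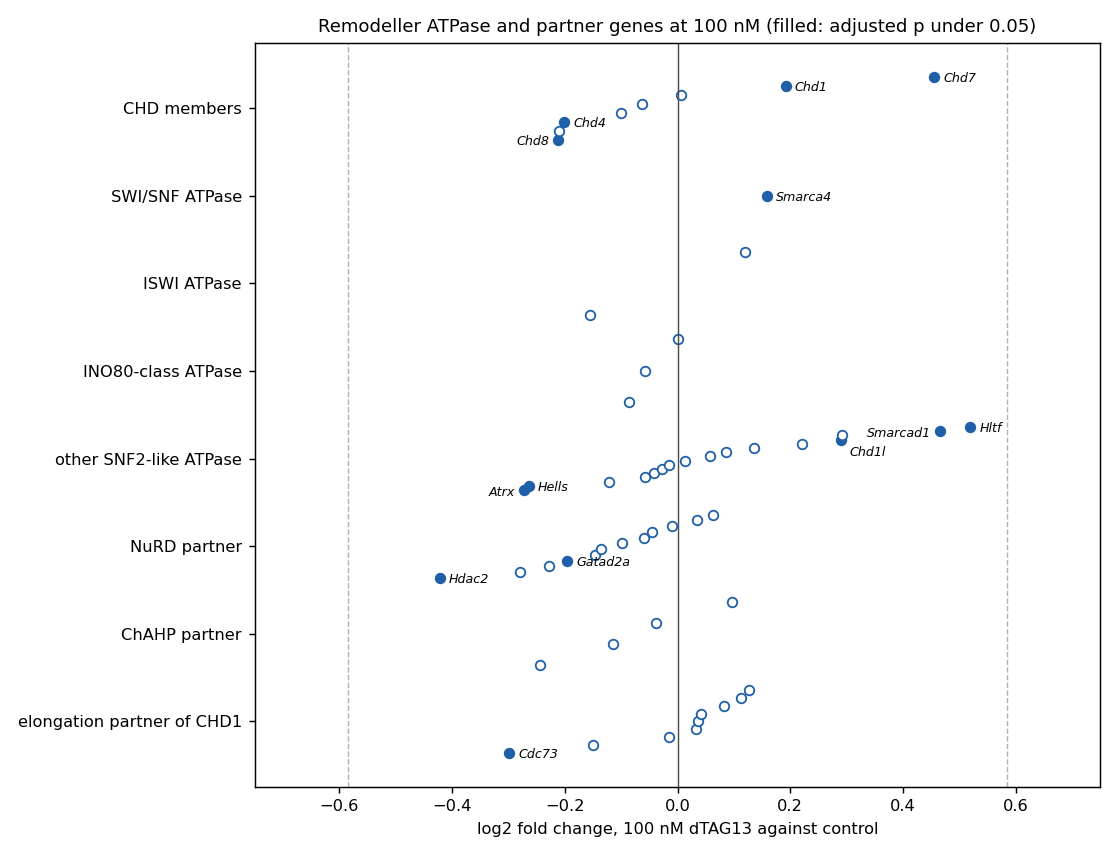
log2 fold change at 100 nM dTAG13 against the control (horizontal axis) of the tested genes of each list of remodeller ATPase and partner genes (rows); filled points passed an adjusted p under 0.05 and are named, and dashed lines mark 1.5-fold. *Chd7*, *Smarcad1* and *Hltf* lie furthest to the right and *Hdac2* furthest to the left, at -0.42.

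Genes next to the members were read for a change that a whole region would share. *1810026B05Rik*, the locus of the long noncoding RNA *Chaserr*, overlaps the *Chd2* span on the same strand and had 84 to 137 counts, with a log2 fold change of -0.18 at 100 nM (adjusted p = 0.464, edgeR). *Nop2*, 1382 bases from *Chd4*, and *Supt16*, 912 bases from *Chd8*, had log2 fold changes of 0.11 and 0.033 at 100 nM (adjusted p of 0.237 and 0.702), so neither was called where *Chd4* and *Chd8* were lower. *Snord8* lies inside the span of *Chd8* and was not called (adjusted p = 0.924). *Rpl22*, 4569 bases from *Chd5*, was lower by a log2 fold change of -0.16 (adjusted p = 0.0474), and the antisense neighbours *Chd3os* and *Kcnab2* had 2 to 18 counts and did not pass the filter. For *Chd1*, *Chd6*, *Chd7* and *Chd9*, no gene of the table lay within 5000 bases.

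The 5 genes whose level followed that of *Chd7* most closely over the 12 libraries were *Pold2*, *Arhgap35*, *Nagpa*, *Ankrd35* and *Pura*, with Pearson r of log2(RPKM + 0.1) from 0.938 to 0.956. In all, 31 of 11377 other genes had an r over 0.9. The libraries share their doses and depth, so these values describe a like course with dTAG13 and nothing more.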

How the data were processed

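RNA-seq was made from total RNA with a stranded SMART-Seq kit. The authors trimmed reads with Trim Galore, aligned them to mm10 with HISAT2 and deposited raw counts of read pairs per gene over exons from featureCounts, without a strand option and without multi-mapped reads, so overlapping genes and antisense partners cannot be told apart. The exon lengths of the same table gave RPKM. The 12 libraries were grouped by their labels.

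The 11378 genes whose mean reached 1 RPKM were scaled by TMM over those genes and tested with edgeR 4.0.16 in R 4.3.3, by the quasi-likelihood test with the 6 groups fitted together and Benjamini-Hochberg adjustment over all genes tested. The order of the doses was fitted as a slope over 5 steps. The biological coefficient of variation was 6.20%. The 2 libraries of a group limit precision. The tests were tried on simulated counts first. Scaling over the tested genes replaced TMM over every gene after the data were seen, because the latter left the tested genes off centre, and both are given. Other alternatives were the likelihood ratio test, DESeq2 1.42.0, other factors, no filter, a replicate block, subsets of libraries and leaving out each library.

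The members and gene lists were chosen with earlier results of these data known. Named are all members, *Smarca4*, *Smarca2*, at most 4 genes per list with the smallest adjusted p at 100 nM, neighbours within 5000 bases with a mean of at least 3 counts, and the 5 genes most like the member with the smallest p over the dose order.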

Additional observations from a re-analysis of the deposited data

How the results depend on the processing

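*Chd7* kept its call at 10 and 100 nM under all 21 alternatives and over the dose order under all 22, and no called value of a member changed sign. At 3 nM the 1 member called (*Chd7*) became 0 by the likelihood ratio test, by DESeq2, with no normalization factors, with no filter, with only the 2 groups fitted and with a 1.5-fold limit, and *Chd7* was lost in 14 of 21 alternatives (adjusted p from 0.0336 to 0.266). At 1 nM the count of 0 became 1 with only the 2 groups fitted (*Chd7*, adjusted p = 0.0468). At 10 nM the 2 called became 1 by the likelihood ratio test, with no factors and with only the 2 groups fitted, 4 with TMM over every gene (the scaling used first, which the reported one replaced after the data were seen) and 0 with a 1.5-fold limit. At 100 nM the 4 called became 2 with no factors and 0 with a 1.5-fold limit, and over the dose order the 4 became 2 with no factors. The fewer calls with a 1.5-fold limit follow from the limit, and the cause of the others was not tested. Leaving out 1 library gave 0 to 1 members at 3 nM, 1 to 3 at 10 nM, 1 to 4 at 100 nM (1 without 100 nM replicate 1) and 3 to 5 over the dose order, and 0 at 0.3 nM, at 1 nM and for 3 nM against 0.3 nM.

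At 100 nM and over the dose order, signs changed for *Chd2* and *Chd3*, which were not called under any alternative there, and for no other member. Sign changes of uncalled values at the other doses are not listed. The slope of *Chd2* turned to 4.26e-06 with upper quartile factors, 0.0093 with no factors, 0.00050 on a log10 dose scale (another unit), and ran from -0.019 to 0.015 over the left-out libraries, among them 0.0012 without 10 nM replicate 2. At 100 nM the log2 fold change of *Chd2* was -0.075 both with no filter and with TMM over every gene, and ran from -0.12 to 0.14 over the left-out libraries, among them -0.080 without 100 nM replicate 1. That of *Chd3* ran from -0.27 to 0.17, among them 0.0026 without 100 nM replicate 2, and its slope from -0.034 to 0.019.

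Over all genes, DESeq2 called 13, 144, 655 and 1293 genes at 0.3, 1, 3 and 10 nM, where 8, 261, 1069 and 2040 were called as reported, and 365 for 3 nM against 0.3 nM in place of 604. With no factors 3, 147 and 368 were called at 0.3 nM, 1 nM and for 3 nM against 0.3 nM, and with no filter 36 at 0.3 nM. Leaving out 1 library gave 1 to 14, 61 to 301, 568 to 1157, 1262 to 2135 and 1769 to 2830 genes at the 5 doses. The share of calls that were higher was 44.2%, 43.9%, 43.2% and 46.4% at 3, 10 and 100 nM and over the dose order, and 31.3%, 33.6%, 26.9% and 29.3% with TMM over every gene. With no factors it was 56.0% at 10 nM and 59.7% over the dose order.

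Replicate numbers are shared between groups, but same-numbered libraries did not deviate together (r from -0.0948 to 0.0927 over 15 pairs of groups, 0 over 0.1). With the replicate number as a block, 2605 genes were called at 100 nM, and the counts of members called were 0, 0, 1, 2 and 4 at the 5 doses and 4 over the dose order.

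*Chd3* and *Chd5*, with the lowest counts, are limited most by depth.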
